A study of Homo sapiens with 10 samples.

Results

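The genes described here take up, carry and activate long-chain fatty acids, the fuel and membrane material that cells draw from outside or from their own stores. The list holds 10 genes of the 58884 in each count table: CD36, FABP1, FABP5, FABP6, SLC27A2, SLC27A4, ACSL1, ACSL5, CPT1A and PPARG. CD36 was chosen by its counts in these same libraries, near 0 in HCT116 and high in DNMT1 KO, so its values are given as a description with no test, and the other 9 genes were listed for their known roles. Each symbol matched 1 Ensembl gene.

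RNA was compared between HCT116 cells (6 libraries), a human colorectal carcinoma line that is wild type for DNMT1, and DNMT1 KO cells (4 libraries), the same line after part of DNMT1 was deleted. DNMT1 encodes the enzyme that copies DNA methylation onto newly made strands. DNMT1 KO cells are 1 derived line that still makes a truncated DNMT1 at a reduced level, so they are a hypomorph and not a null, and features of this 1 line cannot be told apart from effects of the deletion. Both lines were grown untreated in McCoy's 5A medium with fetal calf serum and antibiotics.

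A free fatty acid is bound at the cell surface by CD36, moved across the membrane and coupled to coenzyme A by the fatty acid transport proteins (the SLC27 genes) and the acyl-CoA synthetases (the ACSL genes), and held in solution inside the cell by the fatty acid-binding proteins (the FABP genes). The acyl-CoA can then enter mitochondria through CPT1A or be built into lipids, and fatty acids that bind the nuclear receptor PPARG change the transcription of many of these genes. In the gut, absorptive cells of the small intestine carry high FABP1 and FABP6. CD36 is known from fat, muscle, platelets, macrophages and capillary endothelium, among other cells.

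The HCT116 libraries held 35418732 to 85991812 counts each and the DNMT1 KO libraries 26700853 to 55732013. The labels place the libraries in 4 batches: batch 1 holds replicate 1 of each line, batch 2 holds replicates 2 and 3 of each line, batch 3 holds DNMT1 KO replicate 4, and batch 4 holds HCT116 replicates 7, 8 and 9. Of the counts from 1 to 10, even numbers made up 64.4 to 70.0% in 9 libraries and 39.9% in DNMT1 KO replicate 4, which stood apart in this. DNMT1 itself was at 89.8 to 263 CPM in HCT116 and 14.1 to 22.3 CPM in DNMT1 KO, where CPM is counts per 1000000 of a library total scaled by edgeR's TMM method. The epithelial genes EPCAM, KRT8, KRT18 and KRT19 were present in every library, whereas KRT20, a marker of differentiated colon epithelium, had no count in any. A value after ± is the SD over the 6 HCT116 or 4 DNMT1 KO libraries unless it is marked SE or follows a log2 difference, where it is the SE. Values per gene length are given as RPKM, the CPM divided by the exonic length in kilobases.

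Beyond CD36, the 2 clear changes among these genes were losses. ACSL5, an acyl-CoA synthetase of the gut, fell about 53.0-fold in mean CPM, and PPARG fell about 7.21-fold. FABP6 was called higher by a small margin, and FABP1 had no count in any library. A gene was called where edgeR gave an adjusted p under 0.05 and the log2 difference between the lines, DNMT1 KO minus HCT116, exceeded 1 in size. Of the 9 listed genes other than CD36, 8 passed the filter on low counts, 1 of them was called higher, where 7.42% of all 19279 genes tested were called higher, and 2 were called lower, where 6.49% of all genes were. The 4 DNMT1 KO libraries lay above all 6 HCT116 libraries for 1 of these genes, ACSL1 (8.4% of all genes), and below them for 2, ACSL5 and PPARG (6.79% of all genes). Over the 8 tested genes the median log2 difference was 0.03, beside -0.07 over all genes tested. Scaling by library totals alone moved that median to 0.14 and the calls over all genes from 1431 higher and 1251 lower to 1878 and 956, so small changes are to be read relative to it. Without DNMT1 KO replicate 4 the same 3 genes were called, with log2 differences of 1.54 for FABP6, -6.41 for ACSL5 and -2.69 for PPARG. The list as a whole therefore did not move one way, and its genes are described one by one.

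**Figure D1:**
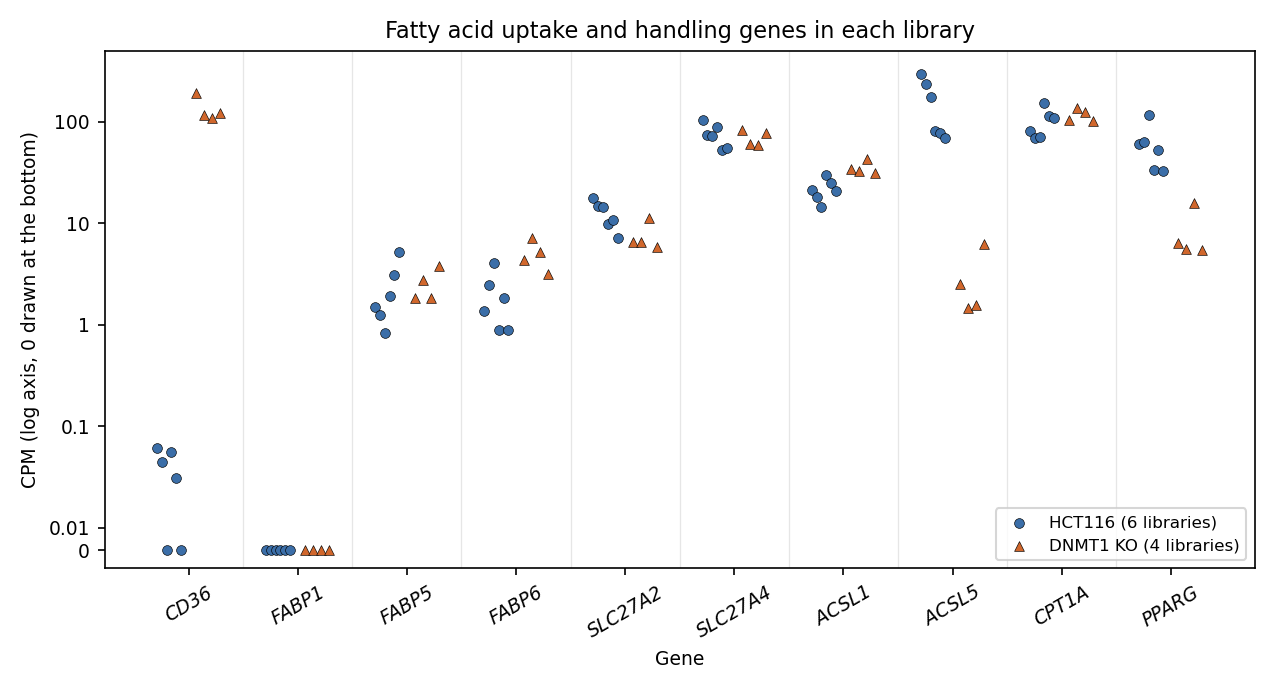
CPM of the 10 genes in each library on a log axis, with values of 0 drawn at the bottom: circles are the 6 HCT116 libraries and triangles the 4 DNMT1 KO libraries, in replicate order. CD36 goes from 0.0619 CPM or less to 109 CPM or more, ACSL5 and PPARG go the other way, FABP1 stays at 0, and the remaining genes overlap or nearly so.

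CD36 encodes a membrane glycoprotein of the class B scavenger receptors that binds long-chain fatty acids, oxidised lipoproteins and thrombospondin. In HCT116 its counts in replicates 1, 2, 3, 7, 8 and 9 were 2, 2, 0, 4, 2 and 0. In DNMT1 KO replicates 1 to 4 they were 7620, 6608, 6869 and 3494. The HCT116 libraries were thus at or next to 0 whatever their batch, and every DNMT1 KO library held 3494 counts or more. On the CPM scale DNMT1 KO was at 192, 117, 109 and 121, a mean of 135 ± 38.6 (SD, n = 4), with replicate 1 the highest and the other 3 libraries close together. On log2(CPM + 0.5) the lines differed by 8.42 in batch 1 and 7.77 in batch 2. The ratio of the pooled CPM values was 4410 (exact 95% counting interval 2397 to 9197). The interval covers counting error only and would be wider if counts come in mate pairs, as the even numbers allow. With values set per length, the mean CD36 level in DNMT1 KO, 12.4 ± 3.55 RPKM, ranked 3 among the 10 genes after SLC27A4 (21.6 ± 3.75) and CPT1A (17.7 ± 2.48).

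CD36 (ENSG00000135218) spans chromosome 7, 80369575 to 80679277 on the plus strand of hg38, with 10880 exonic bases in 26 blocks, none of which are shared with another gene. RefSeq gives it 6 start sites with an upstream window in the promoter table (GRCh38.p14), all within that span, and the 250 bases upstream of each held only 1 or 2 CpG dinucleotides, the sites that DNA methylation marks. The median over all 35116 windows of the table was 11 CpG, and 14.7% of windows held fewer than 2. 2 stretches are printed to show this low CpG content, both from the plus strand in lower case with CpG in capitals, and both outside annotated exons: the first 193 bases of the window at the first start (chr7:80601957-80602149) and the whole window at the start numbered 3 (chr7:80638266-80638515).
CD36 start 1: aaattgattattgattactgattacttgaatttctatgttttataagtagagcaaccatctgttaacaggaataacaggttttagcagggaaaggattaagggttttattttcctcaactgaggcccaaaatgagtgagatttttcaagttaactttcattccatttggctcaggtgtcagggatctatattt
CD36 start 3: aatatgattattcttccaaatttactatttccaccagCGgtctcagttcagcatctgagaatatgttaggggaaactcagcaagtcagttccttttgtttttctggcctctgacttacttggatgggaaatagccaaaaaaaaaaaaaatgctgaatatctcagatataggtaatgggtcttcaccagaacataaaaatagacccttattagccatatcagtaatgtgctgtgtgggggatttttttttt
The first stretch held no CpG, since the 2 of its window lie in the exonic bases left out, and the second held 1. TATAAA or TTTATA, read on both strands as the letters of a TATA box, occurred 1 time in the windows at the starts numbered 1 and 5 and in none of the other 4, where 10.7% of all windows held it. AGGTCA or TGACCT, the letters of a nuclear receptor half-site, occurred in none of the 6 windows and in 12.1% of all windows. These are counts of letters, and no methylation was measured here.

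The other class B scavenger receptors did not pass the test. SCARB1, the receptor for high-density lipoprotein, was at 129 ± 33.5 CPM in HCT116 and 104 ± 25.7 in DNMT1 KO (log2 difference -0.31 ± 0.25 SE, edgeR adjusted p = 0.471). SCARB2, a lysosomal membrane protein, was at 149 ± 36.0 and 222 ± 76.0 CPM (0.57 ± 0.26, adjusted p = 0.169). On the RPKM scale CD36 made up 28.0 to 40.4% of the summed level of the 3 receptors in the DNMT1 KO libraries, against at most 0.0190% in the HCT116 libraries.

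4 protein-coding genes lie within 1 Mb of CD36. GNAT3, the taste-cell G protein gustducin, lies inside the CD36 span on the opposite strand (80458671 to 80512020), and shares no exonic base with it. GNAT3 had 2 counts over the 6 HCT116 libraries, all in 1 library, and 4231 over the 4 DNMT1 KO libraries, where it was at 24.3, 28.8, 17.5 and 19.1 CPM. It passed the filter through the DNMT1 KO libraries alone, so its values are a description. No strand option is given for the counting, so RNA of the CD36 strand across GNAT3 exons and GNAT3 RNA cannot be told apart in these counts. SEMA3C, a secreted semaphorin 63261 bases past the end of CD36, was at 9.31 to 28.1 CPM in HCT116 and 44.5 to 118 in DNMT1 KO, with no overlap (1.90 ± 0.33, adjusted p = 0.000787). GNAI1, 143394 bases before CD36, was at 34.1 to 150 and 112 to 301 CPM and its groups overlapped (0.91 ± 0.35, adjusted p = 0.103). MAGI2, 915908 bases before it, was at 0.290 to 1.24 and 1.04 to 2.13 CPM (1.18 ± 0.45, adjusted p = 0.0918). The neighbours thus ranged from a start at 0, like CD36, to genes that HCT116 already expressed and that did not pass the test.

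**Figure D2:**
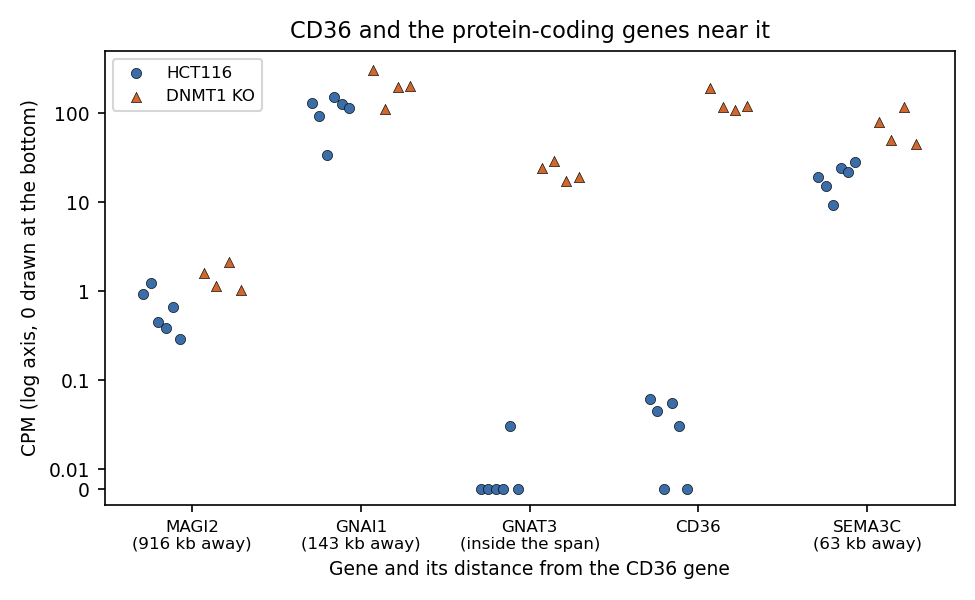
CPM of CD36 and the 4 protein-coding genes within 1 Mb in each library, on a log axis with values of 0 drawn at the bottom: circles are HCT116 and triangles DNMT1 KO. GNAT3 and CD36 are at or near 0 in every HCT116 library, SEMA3C is at 9.31 to 28.1 CPM there and higher in every DNMT1 KO library, and the groups overlap for MAGI2 and GNAI1.

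Cells that normally carry CD36 were looked for by their markers. Of 7 endothelial markers, VWF went from 88 counts over the 6 HCT116 libraries to 510 over the 4 DNMT1 KO libraries (means 0.312 and 2.75 CPM). PECAM1 went from 39 counts over the 6 HCT116 libraries to 215 over the 4 DNMT1 KO libraries (means 0.0989 and 1.23 CPM). Both passed the filter through the DNMT1 KO libraries alone, so their values are a description. CDH5, the endothelial cadherin, was too low to be tested and went from 4 counts over the 6 HCT116 libraries to 70 over the 4 DNMT1 KO libraries, with no overlap in CPM. The summed level of the 7 was 0.349 to 1.98 CPM in HCT116 and 4.51 to 6.31 in DNMT1 KO, far under that of CD36. Of 9 macrophage markers 1 was tested and none called, with sums of 0.390 to 1.71 and 1.01 to 2.05 CPM, and PTPRC, which marks all white blood cells, had 2 counts in each group. Of 6 adipocyte markers 1 was tested and none called, with sums of 0.0557 to 0.749 and 0.278 to 0.480 CPM, and LPL at 0 in every library. Of 5 platelet and megakaryocyte markers 2 were tested and none called, with sums of 1.73 to 6.74 and 2.15 to 5.94 CPM, and PF4 and PPBP at 0 in every library. PECAM1, VWF and CDH5 were thus higher in DNMT1 KO, as CD36 was. The other endothelial markers, KDR, TEK, EMCN and CLDN5, overlapped between the lines, and KDR was tested and not called (1.38 ± 0.81 SE, edgeR adjusted p = 0.298). The part of these markers in the CD36 values was not tested.

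Of 16 genes for ligands and partners of CD36, 14 were tested (median log2 fold change -0.11). Of these 3 were called lower, beside 6.49% of all genes, and none higher. ITGB1, the integrin beta-1 chain, fell from 431 ± 221 to 141 ± 49.5 CPM (-1.61 ± 0.39 SE, edgeR adjusted p = 0.00917). Its groups overlapped, with 192 CPM in HCT116 replicate 1 and 212 in DNMT1 KO replicate 3. The log2 ratio of ITGB1 was -0.81 in batch 1 and -2.04 in batch 2. TLR6, which pairs with CD36 in the response to oxidised lipids, fell from 8.46 ± 1.74 to 4.17 ± 1.41 CPM (-1.02 ± 0.29, adjusted p = 0.0257). The third was THBS2, a thrombospondin. LYN, a kinase that CD36 engages, passed the adjusted p alone.

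The fatty acid-binding proteins were low in both lines. FABP1, the liver and small-intestine form, had no count in any of the 10 libraries, which with 3 counts as the limit that a count of 0 allows places it below 0.0349 to 0.104 CPM in single libraries and below 0.00572 CPM over all of them together. It did not pass the filter and was not tested. FABP5, the epidermal form that carries ligands to the nucleus, was at 0.829, 1.71 and 5.16 CPM (lowest, median and highest) in HCT116 and at 1.84, 2.77, 1.83 and 3.82 in DNMT1 KO replicates 1 to 4. All DNMT1 KO libraries lay within the HCT116 range. The log2 difference was 0.15 ± 0.47 SE (edgeR adjusted p = 0.869), and its log2 ratio was 0.24 in batch 1 and 0.86 in batch 2. The level of FABP5 is uncertain, because 27.5% of its exonic windows of 50 bases occur more than 1 time in hg38, against 5.93% for CPT1A and under 1% for the other 8 genes, and 80 of its 1904 exonic bases are shared with the antisense RNA gene LNMICC. Ratios within a batch are differences of mean log2(CPM + 0.5).

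FABP6, the ileal bile acid-binding protein, is the 1 gene called higher among the listed genes other than CD36. It was at 1.36, 2.48, 4.06, 0.891, 1.83 and 0.883 CPM in HCT116 replicates 1, 2, 3, 7, 8 and 9. In DNMT1 KO replicates 1 to 4 it was at 4.37, 7.09, 5.17 and 3.20 CPM. The groups overlapped, since DNMT1 KO replicate 4 lay below HCT116 replicate 3. The log2 difference was 1.38 ± 0.43 SE with an edgeR adjusted p of 0.0432, just inside the threshold. The call was lost in 13 of 22 other settings, among them the fit of batches 1 and 2 with a batch term (1.15, edgeR adjusted p = 0.0712), and the log2 ratio was 1.39 in batch 1 and 0.83 in batch 2. FABP6 shares 109 of its 1164 exonic bases with FABP6-AS1, which reached at most 0.0505 CPM.

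Of the 14 genes of the wider lipid-binding family, 5 were tested and FABP6 alone was called, beside 13.9% of all genes called in either direction. FABP3, the heart form, was at 0.217 to 0.868 CPM in HCT116 and 1.18 to 1.38 in DNMT1 KO, with no overlap, and did not pass the adjusted p (1.10 ± 0.40 SE, 0.0787 by edgeR). FABP2, FABP4, FABP7 and RBP2 were at 0.142 CPM or less in every library. CRABP2, a retinoic acid carrier of the family, was at a far higher level, 207 ± 101 and 203 ± 57.2 CPM, and did not pass the test (-0.03 ± 0.37, adjusted p = 0.971).

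The fatty acid transport proteins of the list did not pass the test. SLC27A4, the main form of the intestine, was at 53.0, 72.6 and 104 CPM (lowest, median and highest) in HCT116 and at 82.7, 60.6, 58.5 and 77.6 in DNMT1 KO. All DNMT1 KO libraries lay within the HCT116 range (log2 difference -0.09 ± 0.24 SE, edgeR adjusted p = 0.843). The within-batch log2 ratios were -0.33 and -0.28. By mean level per length SLC27A4 was the most abundant of the 10 genes in DNMT1 KO and second to ACSL5 in HCT116 (23.1 ± 6.11 RPKM).

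SLC27A2, the very long-chain acyl-CoA synthetase of liver and kidney, was at 7.10, 12.6 and 17.8 CPM in HCT116 and at 6.52, 6.5, 11.3 and 5.80 in DNMT1 KO. 3 of the 4 DNMT1 KO libraries lay below every HCT116 library and replicate 3 lay within their range. The log2 difference was -0.73 ± 0.31 SE (edgeR adjusted p = 0.139), with ratios of -1.38 in batch 1 and -0.74 in batch 2. Of its 2792 exonic bases 557 are shared with ATP8B4 on the other strand, which was at 0.279 CPM or less in every library.

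Outside the list, SLC27A1, an insulin-responsive transporter of muscle and fat, fell from 46.7 ± 31.7 to 14.2 ± 3.63 CPM (-1.72 ± 0.45 SE, edgeR adjusted p = 0.0164). SLC27A1 differed as much within HCT116, where batch 4 (17.9 to 26.6 CPM) lay below batches 1 and 2 (54.5 to 101) and overlapped DNMT1 KO (-1.71 ± 0.34, adjusted p = 0.0108), and its within-batch log2 ratios between the lines were -1.57 and -2.40. SLC27A6, a heart form, was at 10.1 to 16.2 and 17.9 to 28.2 CPM with no overlap and passed the adjusted p but not the fold limit (0.89 ± 0.23, adjusted p = 0.0138). SLC27A4 held 49.1 to 66.1% of the summed RPKM of the 6 SLC27 genes in HCT116 and 53.6 to 67.9% in DNMT1 KO, whereas the share of SLC27A6 went from 6.06 to 15% to 16.1 to 26.6%. SLC27A3 had no count in any library. All of its 5372 exonic windows of 50 bases are repeated on an alternate sequence of hg38, and the part of this in its 0 counts was not tested.

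To show how the listed genes differ in sequence next to their starts, the upstream windows of SLC27A4 and of ACSL5 and PPARG, whose values follow, are set beside those of CD36 above. They are again on the plus strand with CpG in capitals, and lie at chr9:128340277-128340526 for SLC27A4, chr10:112375018-112375234 for the first start of ACSL5 (its last 33 bases, exonic in another transcript, left out) and chr3:12287118-12287367 for the first start of PPARG.
SLC27A4: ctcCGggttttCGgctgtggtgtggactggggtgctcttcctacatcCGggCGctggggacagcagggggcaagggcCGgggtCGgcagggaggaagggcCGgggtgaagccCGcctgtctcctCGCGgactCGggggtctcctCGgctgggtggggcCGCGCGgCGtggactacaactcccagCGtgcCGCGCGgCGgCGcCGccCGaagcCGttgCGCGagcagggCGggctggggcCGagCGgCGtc
ACSL5 first start: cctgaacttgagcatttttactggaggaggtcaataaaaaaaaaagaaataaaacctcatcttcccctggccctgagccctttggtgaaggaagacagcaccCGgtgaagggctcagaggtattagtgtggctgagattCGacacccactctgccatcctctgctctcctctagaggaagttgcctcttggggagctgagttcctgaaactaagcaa
PPARG first start: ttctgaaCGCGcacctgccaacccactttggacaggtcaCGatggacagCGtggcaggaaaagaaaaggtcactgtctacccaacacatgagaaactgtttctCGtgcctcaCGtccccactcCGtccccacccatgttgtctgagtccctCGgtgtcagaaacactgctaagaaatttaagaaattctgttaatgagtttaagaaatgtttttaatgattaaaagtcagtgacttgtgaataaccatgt
SLC27A4, whose level overlapped between the lines, held 31 CpG in the 250 bases upstream, more than 89.2% of all windows. ACSL5 held 3 and 2 at its 2 starts and PPARG from 0 to 10 at its 6 starts. FABP6 held 3, FABP1 4, CPT1A 7, SLC27A2 17, and the 5 starts of ACSL1 from 4 to 41. The half-site letters AGGTCA or TGACCT occurred 1 time in the whole window at the first ACSL5 start and 2 times in the PPARG window printed here. They also occurred 1 time at each of the PPARG starts numbered 2 and 3, and 1 time in the window of FABP1, which had no count. The remaining windows of the listed genes held none. FABP5 has no window in the table.

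ACSL5, the acyl-CoA synthetase of intestinal epithelium that feeds triglyceride synthesis, was at 297, 237 and 174 CPM in HCT116 replicates 1, 2 and 3 and at 80.8, 76.8 and 68.8 in replicates 7, 8 and 9. In DNMT1 KO replicates 1 to 4 it was at 2.50, 1.48, 1.56 and 6.22 CPM. Every DNMT1 KO library lay far below every HCT116 library. The log2 difference was -5.74 ± 0.64 SE (edgeR adjusted p = 1.57e-05), and all 22 other settings called ACSL5 lower (-7.08 to -5.43). The log2 ratios within batches 1 and 2 were -6.63 and -6.66. HCT116 libraries differed among themselves as well: batch 4 was lower than batches 1 and 2 (log2 difference -1.66 ± 0.32, adjusted p = 0.00942), and ACSL5 was the 1 listed gene called in that comparison, where 8.03% of 18656 genes tested were. ACSL5 (ENSG00000197142, chromosome 10, 112374018 to 112428380, plus strand) shares 144 of its 4236 exonic bases with ZDHHC6 on the other strand, at 37.2 to 187 CPM in HCT116 and 26.8 to 53.3 in DNMT1 KO, and 224 with an antisense RNA gene at 1.07 CPM or less.

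ACSL1, the main synthetase of liver, heart and fat, was at 14.3, 21.0 and 29.6 CPM (lowest, median and highest) in HCT116 and at 34.4, 32.8, 42.8 and 31.2 in DNMT1 KO. The groups did not overlap, the lowest DNMT1 KO library lying just above the highest of HCT116. The change was under the fold limit (log2 difference 0.71 ± 0.23 SE, edgeR adjusted p = 0.0511). It was called when batches 1 and 2 were fitted with a batch term (1.05, edgeR adjusted p = 0.0290), as were 14.3% of 18681 genes in either direction, and also without that term (1.04, adjusted p = 0.0384), with ratios of 0.68 in batch 1 and 1.19 in batch 2.

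In the ACSL family, ACSL5 thus had the highest mean level per length in HCT116, 36.7 ± 22.7 RPKM, and was at 0.694 ± 0.528 RPKM in DNMT1 KO. The rank came from batches 1 and 2. In HCT116 replicates 7, 8 and 9 ACSL3, at 24.7, 23.1 and 21.9 RPKM, lay above ACSL5, at 19.1, 18.1 and 16.3. It made up 27.1 to 64% of the family's summed RPKM in the HCT116 libraries and 0.847 to 3.96% in the DNMT1 KO libraries. The share of ACSL1 was 2.96 to 6.95% and 13.4 to 21.9%. ACSL3, which acts at lipid droplets, was at 149 ± 36.7 and 113 ± 32.1 CPM (-0.40 ± 0.27 SE, edgeR adjusted p = 0.377), and ACSL4, which prefers arachidonic acid, at 104 ± 21.8 and 87.7 ± 22.3 CPM (-0.25 ± 0.25, adjusted p = 0.574). The family sum was 77.0 RPKM in HCT116 (59.9 to 110) and 35.6 in DNMT1 KO (23.8 to 43.4), so the ranges did not overlap.

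**Figure D3:**
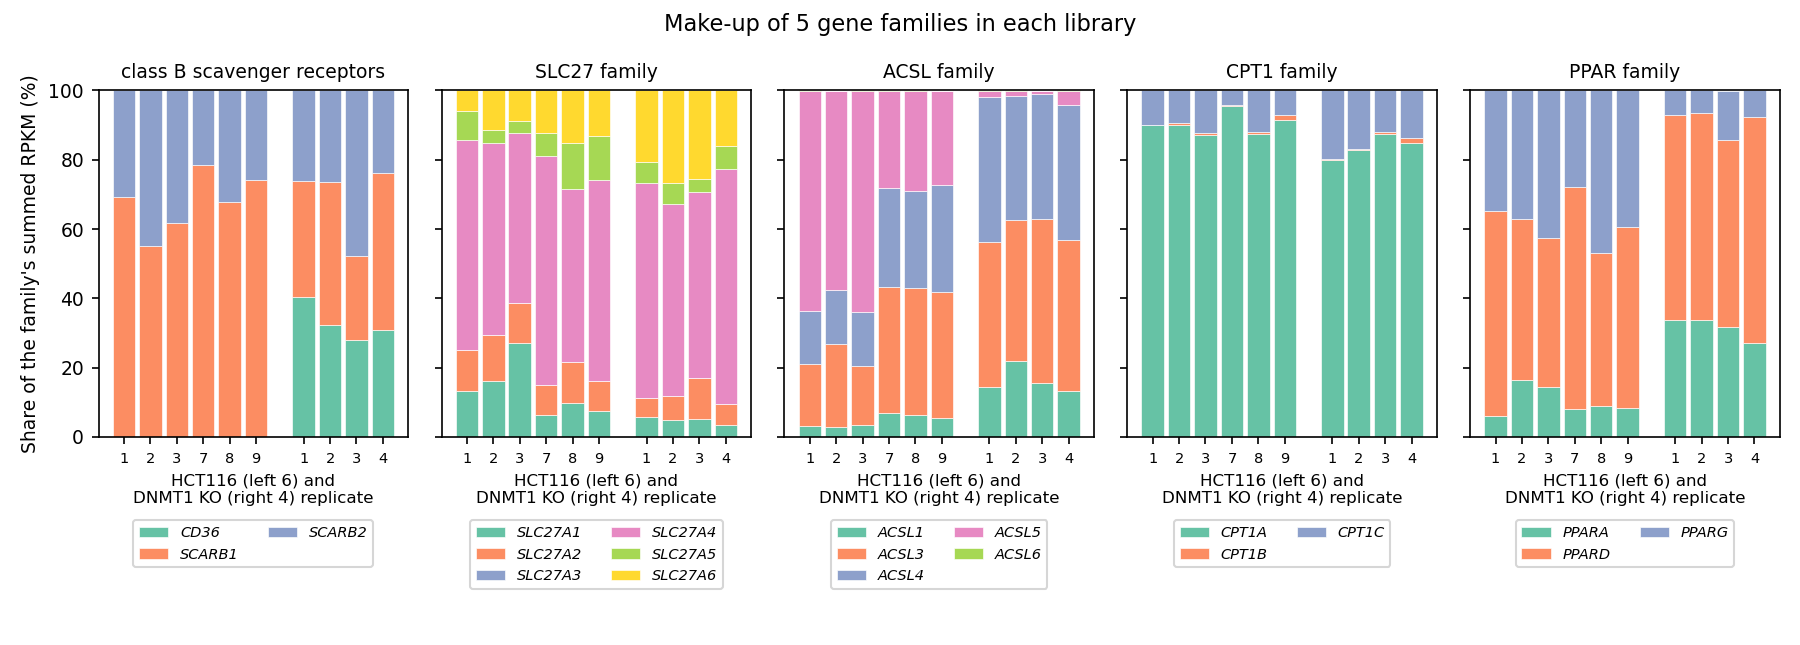
Share of each gene in the summed RPKM of its family, as stacked bars for each library, with the 6 HCT116 replicates on the left of each panel and the 4 DNMT1 KO replicates on the right. ACSL5 takes 27.1 to 64% of the ACSL sum in HCT116 and at most 3.96% in DNMT1 KO, CD36 appears in the DNMT1 KO bars alone at this scale, and the PPARG share is smaller in DNMT1 KO.

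CPT1A, which moves acyl groups into mitochondria and is the controlled step of their oxidation, was at 69.9, 94.9 and 153 CPM (lowest, median and highest) in HCT116 and at 103, 136, 124 and 103 in DNMT1 KO. The groups overlapped, with all DNMT1 KO libraries inside the HCT116 range (log2 difference 0.23 ± 0.25 SE, edgeR adjusted p = 0.610). Within batches the log2 ratios were 0.35 and 0.88, and a batch term in batches 1 and 2 gave 0.71 (adjusted p = 0.0766). CPT1C, a brain form with little enzyme activity, rose from 8.46 ± 2.91 to 19.4 ± 5.01 CPM (1.20 ± 0.28, adjusted p = 0.00809), and CPT1A kept 79.9 to 87.4% of the family's RPKM in DNMT1 KO against 87.1 to 95.6% in HCT116.

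PPARG, the fatty acid-activated receptor that drives fat storage and is expressed in colon epithelium, was at 60.5, 63.7, 117, 33.5, 52.5 and 32.4 CPM in HCT116 replicates 1, 2, 3, 7, 8 and 9. In DNMT1 KO replicates 1 to 4 it was at 6.34, 5.63, 15.8 and 5.49 CPM. Every DNMT1 KO library lay below every HCT116 library, and replicate 3 was the highest in both lines. The log2 difference was -2.85 ± 0.44 SE (edgeR adjusted p = 0.000319), with ratios of -3.16 in batch 1 and -3.12 in batch 2, and all 22 other settings called it lower (-3.35 to -2.51). Between HCT116 batch 4 and batches 1 and 2 it differed by -1.06 ± 0.35 (adjusted p = 0.0750). PPARG (ENSG00000132170, chromosome 3, 12287368 to 12434356, plus strand) shares no exonic base with another gene.

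The other PPAR receptors did not pass the test. PPARA, the receptor of oxidising tissues, was at 19.8 to 117 CPM in HCT116 and averaged 83.1 ± 19 in DNMT1 KO (log2 difference 0.70 ± 0.44 SE, edgeR adjusted p = 0.333). PPARA was lower in HCT116 batch 4 than in batches 1 and 2 (-1.60 ± 0.42, adjusted p = 0.0317). PPARD was at 76.9 ± 28.8 and 51.9 ± 5.42 CPM (-0.57 ± 0.28, adjusted p = 0.217). The share of PPARG in the family's RPKM went from 27.9 to 47.0% to 6.52 to 14.2%. Of 17 tested partners and relatives of PPARG, HNF4G rose (5.46 ± 2.17 to 12.7 ± 2.45 CPM, log2 fold change 1.21 ± 0.33) and HNF4A fell (10.8 ± 2.89 to 5.37 ± 1.67 CPM, -1.01 ± 0.31), both nuclear receptors of gut and liver. For HNF4A the edgeR adjusted p was 0.0413 and the groups overlapped, with 6.20 CPM in HCT116 replicate 9 and 6.45 in DNMT1 KO replicate 2. Over all genes 7.42% were called higher and 6.49% lower.

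**Figure D4:**
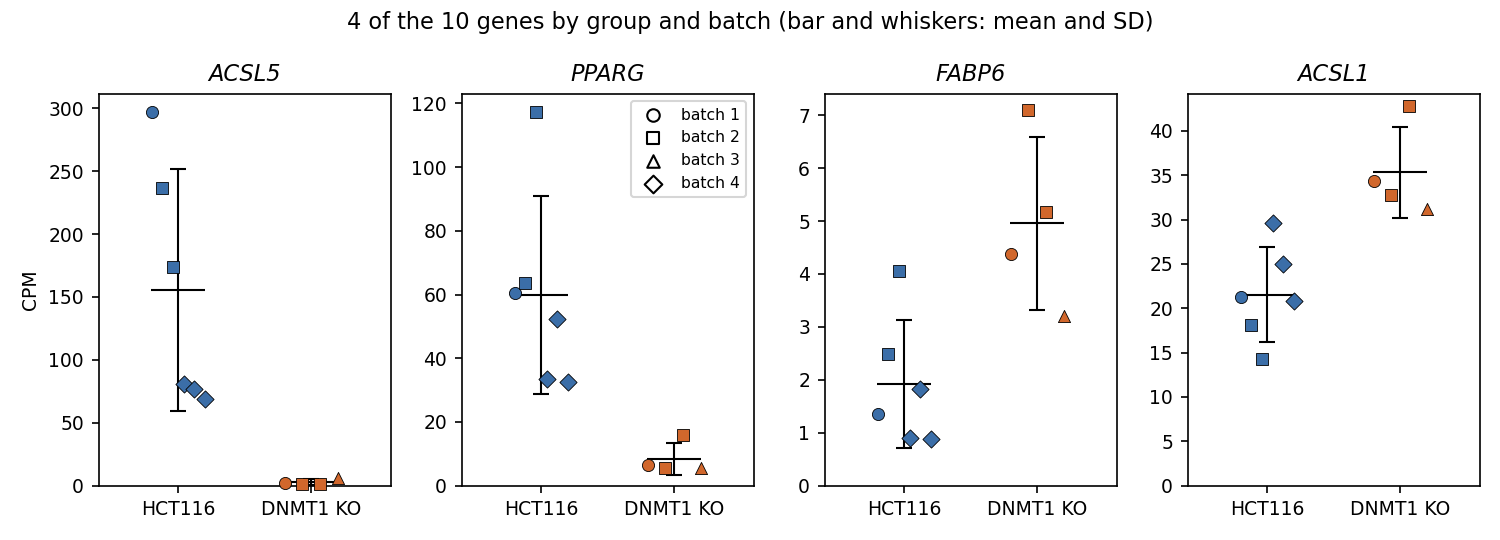
CPM of ACSL5, PPARG, FABP6 and ACSL1 by line, each panel with its own linear axis from 0: the shape of a point gives its batch, and the bar and whiskers are the mean and SD. ACSL5 and PPARG are lower in every DNMT1 KO library than in any HCT116 library, with HCT116 batch 4 the lowest of HCT116 for ACSL5. FABP6 overlaps between the lines, and ACSL1 does not.

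13 genes outside the list that are textbook targets of the PPAR receptors were tested (median log2 fold change 0.24). Of them 3 were called higher, beside 7.42% of all genes, and none lower, beside 6.49%. PDK4, which turns cells from glucose to fatty acid use, rose from 3.61 ± 1.29 to 11.1 ± 3.24 CPM (1.62 ± 0.32 SE, edgeR adjusted p = 0.00244). UCP2, a mitochondrial carrier, rose from 11.9 ± 3.79 to 32 ± 6.54 CPM (1.42 ± 0.28, adjusted p = 0.00202). CREB3L3, a transcription factor of liver and gut lipid metabolism, rose from 0.429 ± 0.253 to 1.25 ± 0.418 CPM (1.53 ± 0.49, adjusted p = 0.0471). PPARG fell in the same libraries, but all of these calls compare the same lines, and a link to PPARG was not tested.

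In the pathways on either side of the listed genes a few genes were called, beside 13.9% of all genes called in either direction. Of 20 tested genes of the carnitine shuttle and mitochondrial beta-oxidation, CPT1C and ACAA2 rose and none fell (median log2 fold change 0.01), with ACAA2, a thiolase, at 10.4 ± 6.17 and 30.5 ± 7.90 CPM (1.55 ± 0.41 SE, edgeR adjusted p = 0.0175). Of 12 peroxisomal genes ACOX2, an oxidase of branched chains and bile acid intermediates, fell from 5.86 ± 3.80 to 1.38 ± 0.451 CPM (-2.08 ± 0.48) and none rose. Of 16 genes of fatty acid synthesis, ELOVL3, an elongase, rose (10.1 ± 2.95 to 27 ± 6.83 CPM, 1.42 ± 0.28), and SREBF1, the transcription factor of lipid synthesis, fell (319 ± 106 to 142 ± 27.5 CPM, -1.17 ± 0.29).

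Of 25 tested genes of triglyceride and lipid droplet metabolism, 2 were called lower, beside 6.49% of all genes, and none higher. MGLL, the lipase that frees fatty acids from monoglycerides, fell from 43.9 ± 34.2 to 1.53 ± 1.15 CPM (-4.82 ± 0.68 SE, edgeR adjusted p = 0.000141), and also differed between HCT116 batch 4 and batches 1 and 2 (-1.71 ± 0.43, adjusted p = 0.0277). GPAT3, a first-step acyltransferase, fell from 70.1 ± 19.5 to 33.1 ± 19.1 CPM (-1.08 ± 0.34, adjusted p = 0.0420). Its groups overlapped, with 40.9 CPM in HCT116 replicate 1 and 61.4 in DNMT1 KO replicate 3. Among 11 tested genes of surface uptake outside the list, 4 were called lower, beside the same 6.49% of all genes, and none higher. LIPG, endothelial lipase, fell from 10.0 ± 4.99 to 1.42 ± 0.359 CPM (-2.82 ± 0.42). The caveolins CAV1 (754 ± 327 to 308 ± 141 CPM, -1.29 ± 0.41) and CAV2 (282 ± 46.5 to 101 ± 34.4 CPM, -1.48 ± 0.27), which form the membrane pits in which CD36 gathers, fell as well, and the fourth was SLC27A1. For CAV1 the edgeR adjusted p was 0.0425 and the groups overlapped, with 269 CPM in HCT116 replicate 3 and 441 in DNMT1 KO replicate 4.

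Genes of intestinal lipid absorption moved both ways, with 3 of 7 tested called higher, beside 7.42% of all genes, and 2 lower, beside 6.49%. NPC1L1, the sterol transporter, went from 0.312 ± 0.209 to 1.94 ± 0.646 CPM. MTTP, which loads lipid onto lipoproteins, went from 0.204 ± 0.150 to 1.11 ± 0.760 CPM. The MTTP groups overlapped, with 0.434 CPM in HCT116 replicate 8 and 0.243 in DNMT1 KO replicate 4. NPC1L1 and MTTP passed the filter through the DNMT1 KO libraries alone. Their values are therefore a description, and the count called higher includes them. SLC51B, a bile acid exporter, was the third gene called higher. FGF19, the bile acid-induced hormone of the ileum, fell from 174 ± 151 to 15.5 ± 16.1 CPM (-3.49 ± 0.77). ABCA1, which exports cholesterol, went from 1.92 ± 1.44 to 0.0468 ± 0.0172 CPM, with 510 counts over the HCT116 libraries and 8 over the DNMT1 KO libraries. It passed the filter through the HCT116 libraries alone, so its difference between the lines is a description. Within HCT116, batch 4 was lower than batches 1 and 2 for FGF19 (-2.44 ± 0.37, adjusted p = 0.00341) and ABCA1 (-2.15 ± 0.52, adjusted p = 0.0226). FABP6, the partner of FGF19 in ileal bile acid handling, was the listed gene called higher. Over the same libraries 4 of 8 tested colon epithelial markers, EPCAM, CDH1, KRT8 and KRT18, were called lower, beside 6.49% of all genes. Another 3 were tested and not called. CDX2, a transcription factor, was at 30.7 ± 9.09 and 36.0 ± 2.72 CPM (0.23 ± 0.25, edgeR adjusted p = 0.601). KRT19 differed by -1.06 ± 0.38 (adjusted p = 0.0763) and CDH17 by -0.23 ± 0.80 (adjusted p = 0.887). CDH1 was also lower in HCT116 batch 4 than in batches 1 and 2 (-2.38 ± 0.38). VIL1 went from 0.00928 to 0.609 CPM and passed the filter through the DNMT1 KO libraries alone, so its values are a description. The sum of the 10 epithelial markers was 2520 to 6130 CPM in HCT116 and 646 to 1431 in DNMT1 KO. Its part in the values of ACSL5, PPARG and the other gut genes was not tested.

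**Figure D5:**
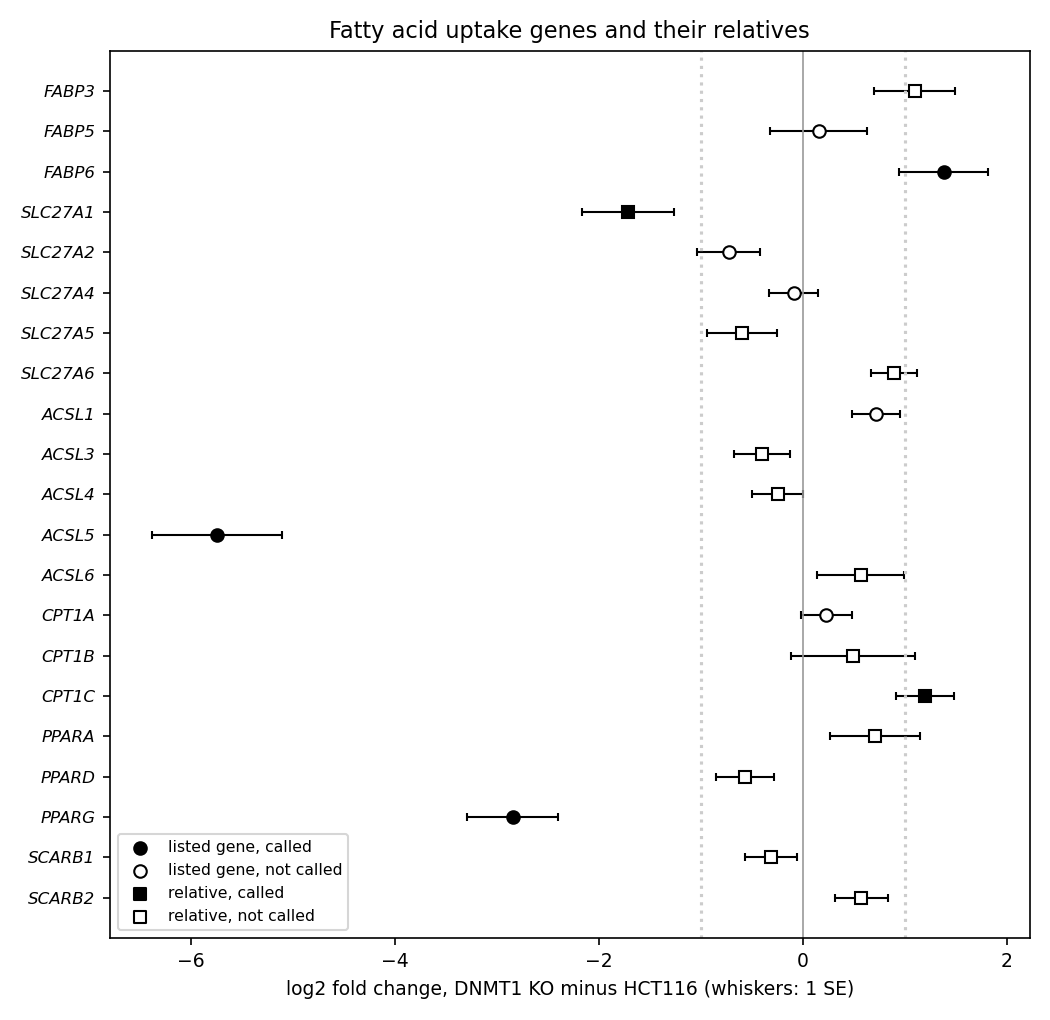
Log2 fold changes, DNMT1 KO minus HCT116, of tested genes of 6 families, the FABP genes without the retinoid carriers, with whiskers of 1 SE: circles are genes of the list, squares their relatives, filled symbols called genes and dotted lines the fold limits. CD36 is left out because it was chosen for its change. ACSL5 (-5.74) and PPARG (-2.85) stand farthest from 0, and FABP6 (1.38), SLC27A1 (-1.72) and CPT1C (1.20) are the other called genes.

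The order of the 10 genes per length shows how the make-up differed between the lines. In HCT116 the mean levels were 36.7 ± 22.7 RPKM for ACSL5, 23.1 ± 6.11 for SLC27A4, 15.1 ± 4.88 for CPT1A, 13.2 ± 6.84 for PPARG, 4.47 ± 1.40 for SLC27A2, 3.42 ± 0.850 for ACSL1, 1.65 ± 1.04 for FABP6 and 1.20 ± 0.842 for FABP5, with CD36 at 0.00297 ± 0.00249 and FABP1 at 0. The library ranges of neighbours in this order overlapped, except for PPARG above SLC27A2 and FABP5 above CD36. In DNMT1 KO the order was SLC27A4, CPT1A, CD36, ACSL1 (5.62 ± 0.820), FABP6 (4.26 ± 1.41), SLC27A2 (2.70 ± 0.908), PPARG (1.83 ± 1.11), FABP5 (1.35 ± 0.498), ACSL5 (0.694 ± 0.528) and FABP1 at 0. There the ranges of neighbours overlapped, except for CD36 above ACSL1 and ACSL5 above FABP1. The exonic length is that of all annotated isoforms joined, which lowers the RPKM of a gene such as CD36 whose RNA holds only some of the exons.

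Genes with a profile like that of a listed gene were ranked by Pearson's r of log2(CPM + 0.5) over the 10 libraries, among 12137 genes. The libraries fall into 2 lines, so these values mostly reflect the difference between the lines and are given as a description. For CD36 the closest were PHYHD1 (r = 0.999), MAGEA4 (0.999), IGFBP7 (0.999), CCDC8 (0.999) and GJA1 (0.999), all near 0 in HCT116, and 262 genes had an r of 0.95 or more. For ACSL5 they were ST6GALNAC5 (0.994), BIK (0.991) and SLC35F3 (0.987), with 106 genes at 0.95 or more, and for PPARG CASP4 (0.987), CDKN1A (0.987) and CAB39L (0.986), with 122. The other genes had few or none: 5 for FABP6, 4 for ACSL1, 3 each for SLC27A2 and SLC27A4, and 0 for FABP5 and CPT1A. The closest were IL2RB (0.980) for FABP6, MAP3K3 (0.988) for ACSL1, PHGDH (0.973) for SLC27A2, KLF16 (0.960) for SLC27A4, AP4B1 (0.920) for FABP5 and B4GALNT1 (0.935) for CPT1A.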

How the data were processed

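Poly(A) RNA of 6 HCT116 and 4 DNMT1 KO libraries was sequenced. The authors trimmed reads with Trim Galore 0.4.1, mapped them to hg38 with bowtie2, an aligner without splicing, filtered on mapping quality and counted reads in exons with featureCounts. The deposited counts are raw whole numbers per gene. No strand option is given in the sources used here, and mates may be counted singly, so even numbers prevail. 3 tables without a matching sample were not used.

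Counts were fitted with edgeR 4.0.16 in R 4.3.3 (TMM scaling, filterByExpr, quasi-likelihood F-test, group as the sole term, two-sided, Benjamini-Hochberg over 19279 genes), and calls were made at 0.05 on the adjusted p with a log2 difference of more than 1 in size. SE is the log2 difference over the square root of F. DESeq2 1.42.0, other scalings and filters, batch terms and each library left out were alternatives. The script was tested on simulated data. The study describes the replicates as independent cultures, so p-values measure the spread between cultures of 1 line each. The gene list, the pathway and marker lists and the naming rule (per list at most 4 called genes of 1 CPM or more with the largest change, or, with fewer than 2 called, the 2 most abundant, and for families every gene of 0.1 RPKM or more) were chosen with earlier results of these data known. THBS2, LYN, SLC51B, VIL1, CDX2, KRT19 and CDH17 fall outside the rule and were named after their values were seen. Sequences are from RefSeq (GRCh38.p14).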

Additional observations from a re-analysis of the deposited data

Results flagged for a closer look

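18 groups of values, the 9 genes with counts in each line, were searched for a library that stood apart from the others, and 4 were found where chance gives about 0.9. For CD36, DNMT1 KO replicate 1 was at 192 CPM and the other 3 libraries at 109 to 121. For SLC27A2, DNMT1 KO replicate 3 was at 11.3 CPM and the others at 5.80 to 6.52. For PPARG, replicate 3 stood above the rest in both lines, at 117 CPM among HCT116 libraries of 32.4 to 63.7 and at 15.8 CPM among DNMT1 KO libraries of 5.49 to 6.34.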

How the results depend on the processing

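ACSL5 and PPARG were called lower in all 22 alternatives, so 2 listed genes were lower throughout. The count of listed genes called higher, 1, was 0 with the replicate block for replicates 1 to 3 and in batch 2 alone (added after seeing the data), and 0 to 1 with single libraries left out. In both fits with a batch term, and in batches 1 and 2 without one (added after seeing the data), the 1 gene called was ACSL1 in place of FABP6. The numbers 1 to 3 paired the libraries unevenly (correlations of deviations 0.46, -0.20 and 0.38 for replicates 1, 2 and 3). The block called 1232 genes higher and 1235 lower. Over all genes, requiring 10 counts in every library left 734 higher and 766 lower, batch 2 alone 815 and 798, and single libraries left out 1214 to 1587 and 987 to 1250. Between HCT116 batch 4 and batches 1 and 2, the listed genes called went from 1 to 2 with no filter and 3 with DESeq2, and ranged from 0 (without replicate 9) to 4 (without replicate 1) with single libraries left out. Log2 differences near 0 turned sign. FABP5 ranged from -0.10 (DNMT1 KO replicate 4 left out) to 0.57 with single libraries left out. SLC27A4 was 0.12 by library totals alone and ranged from -0.17 to 0.057 with single libraries left out, above 0 when HCT116 replicate 1 (0.057) or DNMT1 KO replicate 3 (0.011) was dropped. The cause of these changes was not tested. Low genes such as FABP5 and FABP6 rest on few counts, and batches 3 and 4 each hold 1 line alone.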
